A study of Mus musculus with 4 samples.

Results

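The genome annotation of the mouse holds a class called TEC, for regions where expressed sequence tags or cDNAs point to a possible gene that still awaits an experiment. The deposited table of sleep deprivation in tagged hippocampal neurons listed 28193 annotated genes, of which 2386 were TEC rows. Of these, 1403 (58.8%) lay wholly within a protein-coding gene on the same strand, and these 1403 TEC loci were chosen from the rows listed by position alone. The table lists no row under 10 counts summed over the libraries. A further 287 TEC rows lay within a protein-coding gene of the opposite strand only, 581 lay outside every protein-coding gene and 115 overlapped one in part. The loci sat in 802 surrounding genes, and 1390 had 1 surrounding gene while 13 had 2, in which case the more counted one was used.

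The samples were RNA bound to ribosomes (fosTRAP-seq) of male C57BL/6J mice aged 3 to 5 months. In the study's account, viral vectors in CA1 gave neurons a tamoxifen-dependent Cre under the c-Fos promoter and an HA-tagged Rpl22 (a large-subunit ribosomal protein) meant to tag transduced cells active during the tagging window. Some background tagging without 4-hydroxytamoxifen was also described there. The labels give the genotype as cFos-Cre:Ribotag and the tissue as dorsal hippocampus. Every mouse, controls included, was sleep deprived by gentle handling for 5 h with 4-hydroxytamoxifen on day 0. On day 7 the sleep-deprived (SD) mice were kept awake for 5 h again while the non-sleep-deprived (NSD) mice were left undisturbed, and tissue was taken at ZT 5. The tissue of 5 mice was pooled for each library and each group had 2 libraries (n = 2), so the spread between libraries is a spread between pools. The library numbers 1 and 2 are also the batch numbers given in the labels, and each batch holds 1 library of either group.

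The libraries held 153511705 to 195910235 estimated counts, and the SD libraries were the 2 deeper ones. Markers of CA1 and excitatory neurons were present at a summed 6868 to 7412 CPM (counts after scaling by library size and TMM factor) and none of the 7 was at 0. The median over these 7 was -0.03 on the log2 scale (SD over NSD), and 3 were called lower in a fit with the batch as a block but not in the reported fit. The 6 interneuron, 5 astrocyte, 6 oligodendrocyte, 5 microglial and 3 dentate granule cell markers were all counted, and the medians of these 5 lists lay between -0.04 and 0.01 (log2 fold change, SD over NSD), with 1 interneuron marker called lower and 1 oligodendrocyte marker called higher with the block. The 6 endothelial markers, none at 0, summed to 37.0 and 51.3 CPM in the NSD libraries against 30.3 and 20.1 CPM in the SD libraries, with a median log2 fold change of -0.86, and 5 were called lower with the block but not in the reported fit. The part of these lists in the results on TEC loci was not tested.

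Most genes are transcribed as a long precursor from which introns are removed in the nucleus before the mRNA reaches ribosomes. A TEC locus that lies in an intron on the strand of its gene is covered by the same precursor, so reads from an independent transcript and reads from unspliced RNA of the surrounding gene cannot be told apart in a table of counts per gene. The polyadenylation signal, most often AATAAA or ATTAAA, lies a short way before the end of most mRNAs, whereas a stretch of adenines in the genome can also be bound by the oligo-dT primer with which many cDNA collections were made.

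The ends of the loci are shown here because they are a feature the choice of loci did not use. Each window below holds the last 50 bases of a locus and the 20 bases of genome beyond it, read 5′ to 3′ on the strand of the locus in GRCm39. In the set that follows, the capitals mark the 20 bases past the annotated end. The loci were much lower in SD than in NSD libraries: Gm42583 chr6:21265570-21265639 (plus strand), Gm42770 chr5:49281909-49281978 (minus strand), Gm37895 chr1:25814818-25814887 (minus strand), Gm42992 chr5:132015368-132015437 (minus strand), Gm43186 chr5:132563244-132563313 (minus strand) and Gm43374 chr5:69379168-69379237 (minus strand).
Gm42583: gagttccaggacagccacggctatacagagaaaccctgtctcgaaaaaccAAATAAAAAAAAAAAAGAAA
Gm42770: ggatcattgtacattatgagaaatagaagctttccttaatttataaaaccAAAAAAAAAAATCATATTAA
Gm37895: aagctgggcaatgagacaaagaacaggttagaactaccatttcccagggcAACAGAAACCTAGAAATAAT
Gm42992: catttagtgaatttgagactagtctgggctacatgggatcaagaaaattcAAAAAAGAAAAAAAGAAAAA
Gm43186: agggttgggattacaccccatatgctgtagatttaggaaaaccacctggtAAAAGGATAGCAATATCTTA
Gm43374: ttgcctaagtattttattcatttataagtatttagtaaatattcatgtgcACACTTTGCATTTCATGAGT
Adenine made up 18 of the 20 bases past the end of Gm42583 and Gm42992, 15 past Gm42770, 12 past Gm37895, 10 past Gm43186 and 5 past Gm43374.

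The next window belongs to the most counted locus, with the same use of capitals: Gm45640 chr8:91605055-91605124 (plus strand).
Gm45640: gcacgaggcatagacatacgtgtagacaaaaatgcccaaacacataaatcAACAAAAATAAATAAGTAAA
Gm45640 was the only locus called higher in SD, and 15 of the 20 bases past its end were adenine.

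In the last windows the capitals instead mark AATAAA and ATTAAA where they lie in the last 50 bases of the locus, and letters past its end are not marked: Gm37940 chr6:28799663-28799732 (plus strand), Gm37691 chr1:192966102-192966171 (plus strand) and C230086J09Rik chr14:94034557-94034626 (minus strand).
Gm37940: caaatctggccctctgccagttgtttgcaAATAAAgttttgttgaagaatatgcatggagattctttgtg
Gm37691: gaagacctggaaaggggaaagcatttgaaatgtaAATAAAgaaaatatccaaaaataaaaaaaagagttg
C230086J09Rik: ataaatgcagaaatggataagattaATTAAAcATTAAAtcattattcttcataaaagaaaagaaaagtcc
Gm37940 and Gm37691 were not called, and C230086J09Rik was called lower in SD.

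Over all 1403 loci, 1049 (74.8%) had at least 50% adenine in the 20 bases past the end, with a median of 65%. The share was 31.2% for the 581 TEC rows outside protein-coding genes and 24.0% for the 287 rows of the opposite strand. AATAAA or ATTAAA (searched on the strand of the locus; AATAAA in 194 loci and ATTAAA in 87) was found in the last 50 bases of 267 loci (19.0%). The hexamers were found in 43.2% of the TEC rows outside genes, in 42.5% of those on the opposite strand and in 72.8% of the last 50 bases of 16943 protein-coding genes. A window of 50 bases at the middle of the 1403 loci held one in 5.92%. These are descriptions of letters in a window, and no statement on the use of a site follows from them.

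The loci were mostly intronic. For 1354 of the 1403 (96.5%) no base fell in an annotated exon of a protein-coding gene on the same strand, and 1275 lay within a single intron of the canonical transcript of the surrounding gene. Of these, 422 (33.1%) were in intron 1 and 764 in introns 1 to 3. The median locus was 2251 bases long (275 to 8163) and the median intron that held one was 44351 bases long. The surrounding genes counted once had a median length of 110350 bases, against 23358 for all protein-coding rows, and a median level of 45.2 CPM, against 10.6. A value that is not whole marks reads divided between features by the authors' model, and 4.28% of the loci had one, against 55.6% of all rows.

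The levels of the loci were low and ordered in the same way over the libraries. The median CPM of the 1403 loci was 0.585 in NSD 1, 0.426 in NSD 2, 0.199 in SD 1 and 0.100 in SD 2. The surrounding genes, by contrast, had medians of 44.0, 43.6, 45.2 and 46.0 CPM in the same libraries. The loci together held 0.150% and 0.106% of all counts in the NSD libraries against 0.0568% and 0.0338% in the SD libraries, so the groups did not overlap. The mean share was 0.128% ± 0.0314 in NSD and 0.0453% ± 0.0162 in SD (standard deviation over libraries, n = 2 per group), a log2 difference of -1.50. An exact two-sided permutation test of these shares gave p = 0.33, which is the smallest value that 2 against 2 libraries allow.

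**Figure D1:**
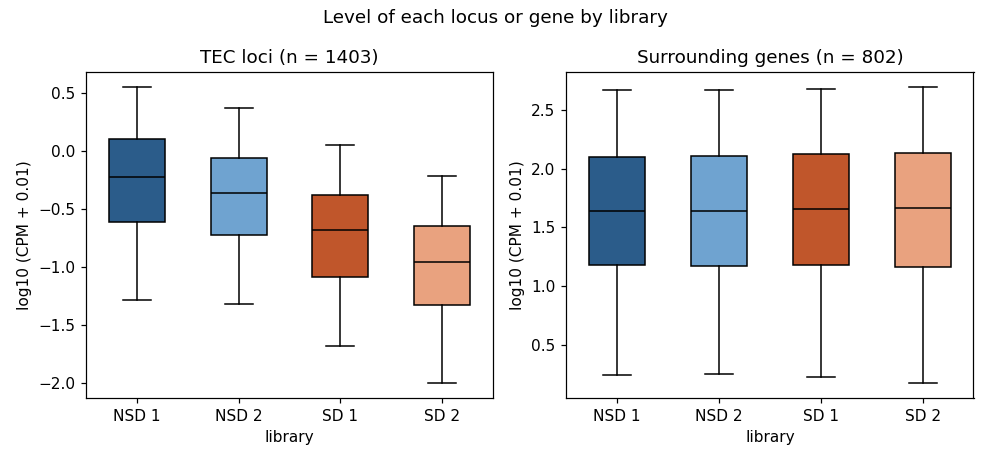
Level of the 1403 TEC loci (left) and of their 802 surrounding genes (right) in each library, as log10 of CPM + 0.01. Boxes span the quartiles with the median as a line, and whiskers the 5th to 95th percentiles. The medians of the loci step down from 0.585 CPM in NSD 1 to 0.100 CPM in SD 2, whereas those of the surrounding genes stay between 43.6 and 46.0 CPM.

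Libraries of the same group were not alike. Over the 1028 loci with more than 5 counts in every library, which were those tested, NSD 2 lay below NSD 1 in 888, by a median of -0.49 on the log2 CPM scale, and SD 2 lay below SD 1 in 888, by -0.76. The nearest libraries of the different groups, SD 1 and NSD 2, were further apart, with a median of -1.10 and SD 1 lower in 975 loci. Within batch 1 the median SD minus NSD difference was -1.58, with 1004 of 1028 loci lower, and within batch 2 it was -1.90, with 1008 lower. The surrounding genes differed by a median of 0.04 within either batch.

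Sleep deprivation on day 7 went with lower counts at nearly all loci. The SD libraries were both lower than either NSD library at 1222 of the 1403 loci (87.1%), where 29.0% of all rows of the table did so, and at 8 loci both were higher, where 19.2% of all rows did so. Among the 1028 loci tested, 1014 had a log2 fold change (SD over NSD) below 0, where 52.8% of all rows tested did so, and 14 one above 0, and the median was -1.78 with quartiles of -2.13 and -1.37. The median over all 22338 rows tested was -0.016. With calls made at an adjusted p below 0.05 plus more than 1.2-fold change, 248 loci (24.1%) were lower and 1 was higher, where 2.33% of all rows tested were called lower and 0.770% higher. In all 248 called lower the groups did not overlap, and their log2 fold changes ran from -3.51 to -0.89. Whether fewer cells or less RNA per cell gave these counts cannot be told apart in pooled tissue.

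The number called depended on the fit. With the batch number as a replicate block 709 loci were called lower and 2 higher, where 8.47% and 2.99% of all rows were, and the block fit kept all 248. DESeq2 called 558 lower and 2 higher, where 5.79% and 2.99% of all rows were. The count was 23 without NSD 1 (0.384% of all rows), 191 without NSD 2 (2.03%), 745 without SD 1 (8.57%) and 381 without SD 2 (3.39%), and the median log2 fold change ran from -2.25 to -1.38. With a filter that let in more rows of low counts, edgeR called 46 lower with no filter (0.284% of all rows), 0 with filterByExpr and 0 with a mean count over 5 (0.00% of all rows in both, and 0.00411% and 0.00386% higher). Under these filters 868, 859 and 839 loci were lower at an unadjusted p under 0.05, against 827 in the reported fit, where 11.3% of all rows tested were. The median stayed between -1.83 and -1.79 under these filters.

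The 375 loci that were not tested were dropped for low counts, often in SD. Of these, 272 had more than 5 counts in both NSD libraries and 6 in both SD libraries. The lower SD values of the 375 are therefore set in part by the filter and add nothing to the results on the loci tested. Summed counts of the 375 were 11976 and 8436 in the NSD libraries against 3976 and 1123 in the SD libraries. Both SD values were under both NSD values at 265 (70.7%). Gm10400, in intron 1 of Pde3a, a phosphodiesterase of cyclic nucleotides, was such a locus, with 7 and 10 counts in the NSD libraries against 2 and 0 in the SD libraries. It has no fold change because it was not tested.

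The genes around the loci had log2 fold changes near 0. Of the 800 surrounding genes tested, 10 were called higher and 5 (0.625%) lower (37 and 28 with the replicate block, 43 and 21 with DESeq2). Their median log2 fold change was 0.04. Over all 15551 protein-coding rows tested, 148 were called higher and 84 (0.540%) lower (587 and 512 with the replicate block), with a median of 0.02. For 775 of the 800 surrounding genes the log2 fold change was within 0.5 of 0. The log2 fold change of a locus lay below that of its gene in 1012 of 1028 cases, and the median difference was -1.79 with quartiles of -2.12 and -1.38. Of the 248 loci called lower, 1 was in a gene that was called itself in the reported fit. Genes called with the replicate block held 37 of the 248, of which 32 were in genes called lower, with 17 in Adgrb3 and 9 in Cntnap2, and 5 in genes called higher. Of the 709 loci called lower with the block, 74 were in a gene called with it. Counts per kilobase of a locus, as a percent of counts per kilobase of the annotated exons of its gene, had a median of 4.87% in NSD 1, 3.62% in NSD 2, 1.49% in SD 1 and 0.653% in SD 2.

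**Figure D2:**
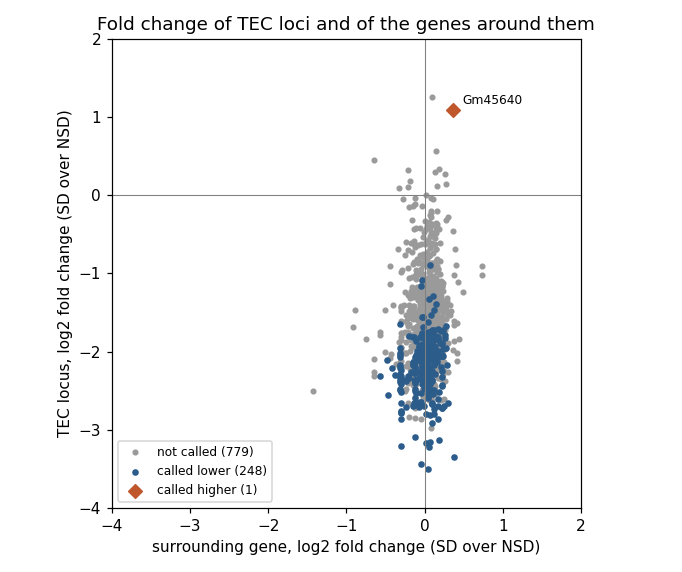
Log2 fold change (SD over NSD) of each of the 1028 TEC loci tested, on the vertical axis, against that of its surrounding gene, on the horizontal axis, with both axes to the same scale. Blue points were called lower (248), the orange diamond higher (1, Gm45640) and grey points neither. The loci spread from -3.51 to 1.25 while nearly all surrounding genes lie within 0.5 of 0.

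Most loci in the 10 surrounding genes called higher had log2 fold changes below 0. These genes held 12 loci, of which 10 were tested, with a median log2 fold change of -1.06, against -1.78 over all loci tested. Of the 10, 9 lay below 0 and none was called lower, and the other, Gm45640 in Chd9, was called higher. Golgb1, which encodes a large protein of the Golgi, rose from 114 and 102 CPM to 193 and 164 CPM (log2 fold change 0.73, adjusted p = 0.0328), and the 2 loci inside it had log2 fold changes of -1.02 and -0.90, neither called. Setd7, a lysine methyltransferase, rose by 0.36 on the log2 scale (adjusted p = 0.0482) and its locus stood at -1.97. The 5 genes called lower held 9 loci, of which 8 were tested, with a median of -1.63. Srsf11, a splicing factor, fell by 0.37 on the log2 scale (adjusted p = 0.0472) and its locus fell by 2.30, the 1 locus called whose gene was lower too.

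Gm45640 was the exception among the loci. It spans chr8:91603209-91605104 on the plus strand in intron 2 of Chd9, a chromatin remodelling helicase, and was the most counted of all loci. It had 29.0 and 25.9 CPM in the NSD libraries against 67.0 and 49.8 CPM in the SD libraries, so the groups did not overlap. Its log2 fold change was 1.09 ± 0.13 (SE, n = 2 per group; adjusted p = 0.0328), and 0.86 to 1.30 without any 1 library. Chd9 itself rose less, from 250 and 258 CPM to 326 and 329 CPM (log2 fold change 0.37 ± 0.08, adjusted p = 0.0449). Per kilobase, Gm45640 was counted at 144% and 125% of the level of the Chd9 exons in the NSD libraries against 255% and 188% in the SD libraries. Gm43167, in the vesicle transport gene Scfd2, had a larger log2 fold change of 1.25 from 30 and 20 counts in NSD and 53 and 84 in SD libraries, which did not pass (adjusted p = 0.21). Gm45643, the other locus in Chd9, had 148 and 128 counts in the NSD libraries against 133 and 97 in the SD libraries, a log2 fold change of -0.45 (adjusted p = 0.56).

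Several other highly counted loci were not called. Gm42732, in the last intron of Ociad1, a protein of mitochondria and endosomes, had 22.5 and 23.9 CPM in the NSD libraries against 29.0 and 27.8 CPM in the SD libraries. Its log2 fold change of 0.29 ± 0.08 did not pass (adjusted p = 0.0824), but passed in the fit with the replicate block (adjusted p = 0.0148). Gm42732 was counted at 96.6% to 115% of the level of the Ociad1 exons per kilobase. Gm42433, within Map4, a microtubule-associated protein, had 6.41 CPM in both NSD libraries and 6.74 and 4.89 CPM in the SD libraries (log2 fold change -0.14 ± 0.17). Gm37940, in intron 16 of Snd1, an RNA-binding nuclease-domain protein, had 5.45 and 4.95 CPM in NSD and 6.40 and 5.35 CPM in SD (0.18 ± 0.15). In both of these loci the groups overlapped.

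The loci nearest 0 among the 100 most counted were C030015A19Rik, Gm38357, 5930420M18Rik and D930036K23Rik. C030015A19Rik, within the zinc finger gene Zxdc, had 5.42 and 5.04 CPM in NSD and 5.24 and 4.89 CPM in SD libraries. Gm38357 lies within Noct, which encodes the rhythmic protein nocturnin, and had 4.55 and 4.12 CPM against 4.25 and 3.62 CPM. In both, the groups overlapped. 5930420M18Rik, within the tubulin deglutamylase gene Agbl5, had 2.15 and 1.72 CPM against 2.26 and 1.51 CPM. D930036K23Rik, within Hacd1, an enzyme of fatty acid elongation, had 1.94 and 1.43 CPM against 1.75 and 1.51 CPM. Their log2 fold changes lay between -0.14 and -0.03, and none of the 4 lies in an intron of the canonical transcript of its gene. They were counted at 27.9% to 138% of the exon level of their genes per kilobase, well over the median of the loci.

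Other loci that stood high against their gene were in genes of low level. Gm37691, within Lamb3, a laminin chain, had 0.971 and 0.827 CPM in NSD and 1.01 and 0.920 CPM in SD libraries, at 130% to 223% of the exon level of Lamb3 per kilobase. Gm47097, in intron 1 of the lysozyme-like gene Lyzl4, had 0.911 and 0.694 CPM against 0.681 and 0.354 CPM, at 387% to 920% of the level of its gene. Neither was called, with log2 fold changes of 0.10 ± 0.30 and -0.63 ± 0.42. Of the 14 loci tested with a log2 fold change above 0, 8 (57.1%) had AATAAA or ATTAAA in the last 50 bases, against 196 of the 1014 below 0 (19.3%). This set was picked by its fold change and is a description. The 87 loci tested with the hexamer and with under 50% adenine past the end had a median log2 fold change of -1.38, against -1.85 for the 117 with both, -1.80 for the 669 with adenine alone and -1.78 for the 155 with neither.

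The 6 deepest falls among the called loci were in Auts2, Grm3, Kctd8, Lsamp, Cntnap2 and Setd2. Gm43186 (chr5:132563264-132564087, minus strand) lies in intron 1 of Auts2, a gene of neuronal development, 8096 bases from its start. It had 123 and 79 counts in the NSD libraries against 11 and 9 in the SD libraries, and a log2 fold change of -3.51 ± 0.51 (adjusted p = 0.0328). Auts2 itself had 165 and 146 CPM in NSD and 157 and 165 CPM in SD libraries (0.05 ± 0.08). The SD libraries of Gm43186 lay at 1.08% and 0.801% of the exon level of Auts2 per kilobase and the NSD libraries at 12.5% and 9.56%.

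Gm42455, in intron 1 of the metabotropic glutamate receptor gene Grm3, had 69 and 57 counts in NSD and 6 and 7 counts in SD libraries, a log2 fold change of -3.44 ± 0.55. Gm43374, in the only intron of Kctd8, an auxiliary subunit of GABA-B receptors, had 79 and 57 against 7 and 8 counts (-3.35 ± 0.54). Gm36939, within the cell adhesion gene Lsamp, had 121 and 45 against 9 and 11 counts (-3.22 ± 0.62). In these 3 loci the groups did not overlap, while the log2 fold changes of Grm3, Kctd8 and Lsamp were -0.05, 0.37 and 0.06, none called in the reported fit, and Kctd8 was called higher with the replicate block (adjusted p = 0.00813).

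Gm43882, in intron 1 of Cntnap2, had 211 and 102 counts in NSD and 22 and 16 in SD libraries (-3.21 ± 0.50). Gm42763, in intron 1 of Setd2, the methyltransferase of histone H3 lysine 36, had 180 and 116 against 22 and 15 counts (-3.18 ± 0.47). The adjusted p of these 6 loci lay between 0.0328 and 0.0400. Without NSD 1 none of the 6 passed (adjusted p of 0.0613 to 0.142), and the log2 fold changes of Gm36939 and Gm43882 were then -2.36 and -2.62. Of the 17 loci named by rule that were called, 11 were not called without NSD 1, and each of the 17 was called without any other 1 library. Setd2 was not called and had 144 and 136 CPM in NSD and 136 and 149 CPM in SD libraries.

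Among the 8 loci with the most counts, 3 fell. Gm42583 (chr6:21258920-21265619, plus strand) is 6700 bases long and lies in intron 1 of Kcnd2, which encodes the A-type potassium channel Kv4.2 of CA1 dendrites. It had 12.4 and 7.09 CPM in the NSD libraries against 2.78 and 1.15 CPM in the SD libraries, a log2 fold change of -2.31 ± 0.40 (adjusted p = 0.0374). Gm37895, in intron 2 of the adhesion receptor gene Adgrb3, had 9.74 and 5.10 against 2.04 and 1.24 CPM (-2.18 ± 0.34). 2900027M19Rik, in intron 1 of Fam155a, whose protein belongs to the sodium leak channel complex, had 8.85 and 5.77 against 2.07 and 1.43 CPM (-2.06 ± 0.26). Libraries of the same group differed widely here, yet the groups did not overlap. Without SD 1 the log2 fold change of Gm42583 was -3.08.

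**Figure D3:**
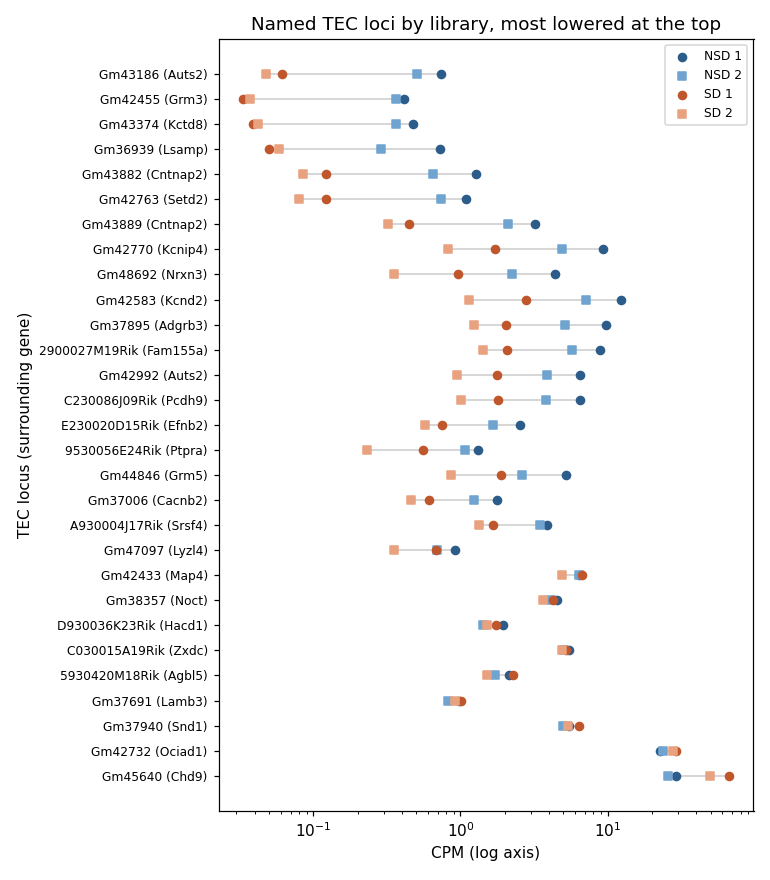
CPM of 29 named TEC loci in each library on a log axis, with the surrounding gene in brackets, ordered by log2 fold change from Gm43186 (-3.51) to Gm45640 (1.09). Blue symbols are NSD and orange symbols SD libraries, circles library 1 and squares library 2, and the grey lines join the lowest and the highest. In the 20 uppermost loci both SD libraries lie left of both NSD libraries.

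Loci gathered in long genes. Of the 802 surrounding genes, 554 held 1 locus, 248 held 2 or more and 38 held 5 or more, so many loci share a gene and are not independent of each other. With the most counted locus of each gene alone, 131 of 610 tested were called lower and 1 higher (398 and 2 with the replicate block), and the median was -1.67. Kcnip4 held 24 loci, Auts2 and Cntnap2 22 each, Dlg2 20 and Adgrb3 19.

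Kcnip4 encodes a calcium-binding partner of Kv4 channels and spans 1135406 bases of chromosome 5 (chr5:48546844-49682249, minus strand), with all 24 loci in intron 1. Both SD values were under both NSD values at all 24, 14 of the 21 tested were called lower, and the log2 fold changes ran from -3.09 to -1.88. Their summed level was 76.9 and 42.0 CPM in the NSD libraries against 15.7 and 6.81 CPM in the SD libraries. Kcnip4 itself had 32.5 and 39.6 CPM in NSD and 31.2 and 35.4 CPM in SD libraries (-0.12 ± 0.11). Per kilobase, the loci together were counted at 16.3% and 7.29% of the Kcnip4 exons in NSD and at 3.46% and 1.32% in SD libraries. The most counted was Gm42770 (chr5:49281929-49286083, minus strand), with 9.37 and 4.88 CPM in NSD and 1.70 and 0.820 CPM in SD libraries (-2.50 ± 0.39, adjusted p = 0.0355), and a log2 fold change of -3.12 without SD 1.

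Auts2 held its 22 loci with 19 tested and 7 called lower, and at all 22 both SD values were under both NSD values. Summed, they had 36.9 and 23.3 CPM in NSD and 10.3 and 4.38 CPM in SD libraries, and the most counted was Gm42992 in intron 4, with 6.51 and 3.88 against 1.77 and 0.952 CPM (-1.93 ± 0.34). Cntnap2 encodes the adhesion protein Caspr2, and of its 22 loci 18 were tested and 9 called lower. The most counted of them, Gm43889 in intron 1, had 3.19 and 2.09 CPM in NSD and 0.448 and 0.323 CPM in SD libraries (-2.78 ± 0.33). Cntnap2 itself had 215 and 240 CPM in NSD and 177 and 191 CPM in SD libraries (-0.31 ± 0.09), which did not pass (adjusted p = 0.0931) except with the replicate block (adjusted p = 0.00618). Its loci had a summed 21.8 and 13.3 CPM in NSD and 4.49 and 2.55 CPM in SD libraries.

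Dlg2 encodes the synaptic scaffold PSD-93, and 9 of its 17 loci tested were called lower, with a summed 50.8 and 30.7 CPM in NSD and 12.2 and 4.65 CPM in SD libraries. In Adgrb3, 17 of the 18 loci tested were called lower, and the sums were 75.1 and 46.9 against 16.9 and 9.50 CPM. Adgrb3 itself had a log2 fold change of -0.31, which did not pass (adjusted p = 0.0713) except with the replicate block (adjusted p = 0.0044). Ank2, which encodes the membrane anchor ankyrin-B, held 12 loci that summed to 33.3 and 22.3 CPM in NSD and 8.98 and 5.18 CPM in SD libraries, while the gene stood at 6392 to 9949 CPM. All 12 were tested and 9 were called lower.

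The relation of a locus's level to its place along the gene differed between genes. In Kcnip4, Cntnap2 and Adgrb3 the mean count per base was lower at greater distance from the gene start, with a Spearman correlation over the 24, 22 and 19 loci of -0.57, -0.80 and -0.67. For Auts2 it was -0.48 and for Dlg2 -0.28. Among the other genes with 9 or more loci it was -0.72 in Dpp10, -0.56 in Fam155a and Maml3, -0.40 in Pcdh7, -0.02 in Ank2 and 0.45 in Ctnna2. The loci of a gene share their libraries and their gene, so these are descriptions. In Kcnip4, 2900064K03Rik at 5970 bases from the start had 1172 and 594 counts in NSD and 224 and 134 in SD libraries over 3113 bases, and Gm43831 at 986966 bases had 49 and 29 against 19 and 5 counts over 2598 bases. In Dlg2 the locus nearest the start, A930002H02Rik at 394931 bases, had 1 and 3 counts in NSD and 2 and 14 in SD libraries over 1178 bases, and the farthest, Gm45201 at 1954498 bases, had 267 and 146 against 69 and 19 counts over 2679 bases.

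**Figure D4:**
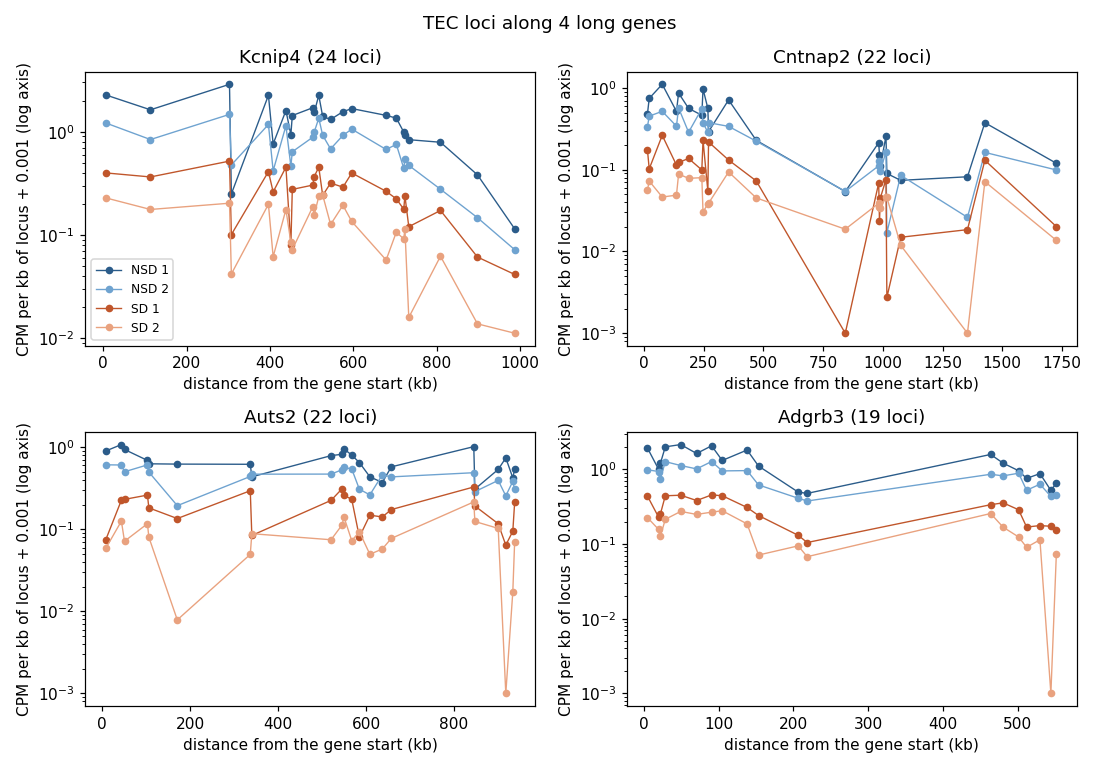
CPM per kilobase of each TEC locus + 0.001, on a log axis, against the distance of the locus from the start of its gene in kilobases, for Kcnip4 (24 loci), Cntnap2 (22), Auts2 (22) and Adgrb3 (19). Each line is 1 library, blue for NSD and orange for SD, and points at 0.001 are loci with 0 counts. Both SD points lie below both NSD points at 24, 21, 22 and 19 loci of these genes, and the Spearman correlation of the mean count per base with the distance is -0.57, -0.80, -0.48 and -0.67.

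Log2 fold changes were lower in longer genes. In 4 classes of about equal size (253 to 261 loci) by the length of the surrounding gene the median log2 fold change was -1.53 (5845 to 83253 bases), -1.59, -1.82 and -2.09 (468377 to 2960900 bases), and 11.6%, 17.2%, 21.8% and 46.2% of the loci were called lower. The Spearman correlation of the log2 fold change with the length was -0.38 over 1028 loci (Pearson r = -0.36 on log10 length), and -0.30 over the 610 most counted loci, 1 for each gene. It was -0.35 with the length of the intron (933 loci), -0.39 with the distance from the locus to the end of the gene, -0.22 with the distance from its start and 0.25 with GC content. The loci share libraries and genes, and no test was made. The genes around the loci had a median log2 fold change of 0.05 in the class of the shortest genes and -0.02 in that of the longest.

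Among the loci tested, log2 fold changes were also lower in more abundant genes. In 4 classes by the CPM of the surrounding gene the median log2 fold change was -1.55, -1.69, -1.82 and -1.90, and in 4 classes by the CPM of the locus it was -1.53, -1.73, -1.85 and -1.93. The share called lower was 5.84% in the class of loci with the fewest counts and 56.4% in that with the most. Loci dropped by the count filter, often for low counts in SD, are missing from these classes. A deep fall at a locus of few counts is thus more readily dropped, which can make the low classes look shallower. Counting error is also larger at few counts, which limits the calls there. The part of either in these differences was not tested. The fold change of a locus and that of its gene had a Spearman correlation of 0.12.

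**Figure D5:**
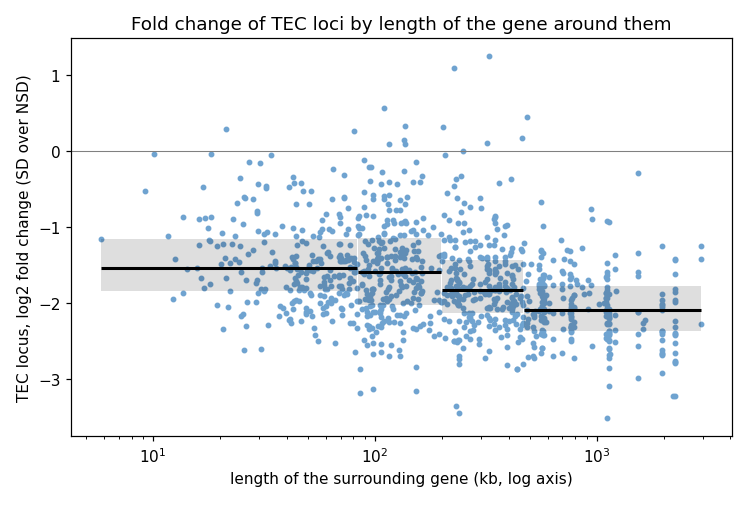
Log2 fold change (SD over NSD) of the 1028 TEC loci tested against the length of the surrounding gene in kilobases on a log axis. Black lines are the medians and grey bands the quartiles within each of 4 length classes. The medians step from -1.53 in the shortest genes to -2.09 in the longest, and few points lie above 0.

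Since 1014 of the 1028 loci tested lay below 0, a median below 0 in a group of genes by role says little about that role. It lay below 0 in each group with a locus tested. Over all loci tested the median was -1.78 and 24.1% were called lower, and differences between the groups were not tested. Potassium channel genes and their partners (9 genes, Kcn symbols) held 35 loci, of which 31 were tested and 17 called lower, with a median of -2.36. Kcnip4 alone gave 24 of these loci and 14 of the calls, and the other 8 genes held 11 loci, 10 tested and 3 called lower, with a median of -2.14. Contactins, contactin-associated proteins and neurexins (4 genes) held 26 loci, 22 tested and 11 called lower, with a median of -2.28. Cntnap2 alone gave 22 of these loci and 9 of the calls, and the other 3 genes held 4 loci, all tested and 2 called lower, with a median of -1.84. Their most counted locus, Gm48692, in intron 14 of the presynaptic adhesion gene Nrxn3, had 4.39 and 2.24 against 0.957 and 0.354 CPM (-2.34 ± 0.48), and its log2 fold change was -1.75 without NSD 1 (adjusted p = 0.118) and -3.22 without SD 1. Cadherins and protocadherins (7 genes) held 23 loci, 19 tested and 5 called lower, with a median of -1.88. Pcdh7 gave 13 of these loci and 1 of the calls, and the most counted, C230086J09Rik in Pcdh9, had 6.48 and 3.82 against 1.79 and 1.01 CPM (-1.88 ± 0.33).

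Glutamate receptor genes, with Grip1, a receptor-binding scaffold that shares the symbol, held 15 loci, 14 tested and 4 called lower, with a median of -1.79. Gm44846, in the last intron of the metabotropic receptor gene Grm5, had 5.19 and 2.62 against 1.90 and 0.862 CPM, and its log2 fold change of -1.50 ± 0.42 did not pass (adjusted p = 0.091) but did with the replicate block (adjusted p = 0.000145). It was -0.90 without NSD 1 (adjusted p = 0.331) and -2.18 without SD 1 (adjusted p = 1.1e-09), and it also passed without NSD 2 or SD 2. Guidance genes (13 genes of semaphorins, plexins, ephrins, Eph receptors, Robo, Slit and Unc5) held 28 loci, 15 tested and 6 called lower, with a median of -1.79. E230020D15Rik, in the ephrin gene Efnb2, had 2.56 and 1.67 against 0.752 and 0.576 CPM (-1.67 ± 0.31), and was called.

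RNA-binding protein genes (6 genes) held 10 loci, 9 tested and 3 called lower, with a median of -1.57. A930004J17Rik, in intron 1 of the splicing factor gene Srsf4, had 3.84 and 3.49 against 1.65 and 1.34 CPM (-1.29 ± 0.21), with little spread within either group. Calcium channel genes (Cacna2d1, Cacnb2 and Cacng7) held 7 loci, of which 5 were tested, with a median of -1.49. The edgeR fit called 0 of the 5, with 4 at an unadjusted p under 0.05, and the fit with the replicate block called 4 lower. Cacnb2, which held 4 of the 5 tested, was itself called lower (log2 fold change -0.31, adjusted p = 0.048). Gm37006, in Cacnb2, whose protein is an accessory calcium channel subunit, had 1.77 and 1.23 against 0.609 and 0.460 CPM (-1.49 ± 0.33, adjusted p = 0.0539) and passed with the replicate block (adjusted p = 0.00425).

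Receptor tyrosine phosphatases held 4 loci with 2 tested, of which 9530056E24Rik in Ptpra had 1.32 and 1.07 against 0.553 and 0.233 CPM (-1.61 ± 0.44). It was not called (adjusted p = 0.0909), but was with the replicate block (adjusted p = 0.00624) and without SD 1, where its log2 fold change was -2.36 (adjusted p = 9.92e-05).

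Other TEC rows had medians nearer 0. Their log2 fold changes had a median of -1.26 over the 189 tested rows within genes of the opposite strand, -0.38 over the 355 outside genes and -0.35 over the 91 in partial overlap, with 24, 34 and 1 called lower (86, 72 and 8 with the replicate block). The share of rows with both SD values under both NSD values was 70.0%, 41.7% and 43.5% in these classes. The differences between the classes were not tested, since rows of a class share libraries and genes. Among the TEC loci within genes on the same strand, the 49 with some protein-coding exon base had a median of -1.16 over 38 tested, and the 1354 without had -1.79 over 990.

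A list of 14 long noncoding RNAs known from the nucleus also had a median below 0. Its share of all counts was 0.668% and 0.448% in the NSD libraries against 0.343% and 0.246% in the SD libraries. Its median log2 fold change was -1.07, and 7 of 14 were called lower (11 with the replicate block). Over all 2610 long noncoding RNA rows tested the median was -0.36 and 109 (4.18%) were called lower (384 with the replicate block). Malat1 had the most counts of the list, with 3763 and 2464 against 2075 and 1483 CPM. Its log2 fold change of -0.81 did not pass (adjusted p = 0.0877) except with the replicate block (adjusted p = 6.76e-05). Kcnq1ot1, an antisense RNA of the imprinted Kcnq1 domain, had 130 and 91.9 against 46.2 and 28.1 CPM (-1.58 ± 0.23), and Neat1, the scaffold of paraspeckles, had 41.2 and 46.6 against 22.0 and 12.6 CPM (-1.34 ± 0.21). Snhg14 and Pvt1 of the same list were not called, with log2 fold changes of 0.03 and -0.01. The order NSD 1, NSD 2, SD 1, SD 2 of the summed share of this list was that of the TEC loci. Whether the content of nuclear RNA in the libraries had a part in the results on the loci was not tested.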

How the data were processed

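After trimming and alignment to GRCm39 (STAR 2.7.8a), the authors assigned reads to Ensembl release 110 by expectation maximization in Partek, and the deposited values are its estimated counts, not normalized. The library kit keeps strand, and whether counting used strand is not given in the sources used here. Here the estimated counts were rounded, the 22338 rows above 5 counts in each of the libraries were tested with edgeR 4.0.16 (TMM, quasi-likelihood, condition only) in R 4.3.3, and p-values were adjusted by Benjamini-Hochberg over all of them. CPM used the rounded counts and the TMM factors. Library totals were 162943863 and 153511705 (NSD) and 181914848 and 195910235 (SD). The 2 pools per group and, in loci with few counts, counting error limit the precision.

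The deposited end of a row was taken as 1 past its last base, as for 2356 of the 2377 TEC rows found in GENCODE M39 of the same build, which gave exons and introns. The batch number in the labels pairs the libraries (correlation of same-numbered deviations 0.178 over all rows and 0.0507 over the loci tested), and the block with it was an alternative, as were DESeq2 1.42.0, its size factors, protein-coding TMM factors, other count filters, subsets of the loci and leaving out each library. The values within each batch were added after seeing the data.

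Named loci were the 8 most counted, the 6 deepest falls and the rises among calls with groups apart, the most counted in the 3 genes with most loci, the 4 highest against their gene's exons (mean count over 100), the 4 nearest 0 among the 100 most counted, and the most counted of each gene group. 1 locus this rule picks is not reported here. Other loci and genes are named as examples chosen after their values were seen. Loci and lists were chosen with earlier results of these data known.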

Additional observations from a re-analysis of the deposited data

How the results depend on the processing

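The direction of the median was kept under every alternative run, but its size varied with the library left out. The median log2 fold change of the loci tested lay between -2.25 and -1.38. The median difference from the surrounding gene lay between -2.27 and -1.41, and both ends of either range came from leaving out 1 library. The number of loci called lower (248) went to 558 with DESeq2, 709 with the replicate block (pairing by batch number), 46 without a count filter, 0 with filterByExpr, 0 with a mean count over 5 and 131 with 1 locus per gene, where the lower number of loci enters. Leaving out 1 library gave 23 to 745, with 1 library assumed to vary like those of the other group. The count called higher (1) was 2 with DESeq2 and with the replicate block, and 0 with filterByExpr and with a mean count over 5, where edgeR found 2 and 3 at an unadjusted p under 0.05. With 1 locus per gene, both SD values were under both NSD values at 690 of 802. Beyond the number of loci entered, the cause of these differences was not tested. Of 330 values for the 30 tested loci that the naming rule picked under the alternatives, 250 kept direction and call, 55 lost the call, 17 gained one and 8 changed sign. The sign changes were in loci near 0 when 1 library was left out: D930036K23Rik (-0.25 to 0.22), 5930420M18Rik (-0.35 to 0.24), C030015A19Rik (-0.10 to 0.037), Gm42433 (-0.39 to 0.091) and Gm37691 (-0.011 to 0.25). Loci with few counts are limited by depth, and 375 of 1403 were not tested.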
